A study of Mus musculus with 12 samples.

Results

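Of the 12 testis RNA-seq libraries of this series, the 6 compared here come from the groups named 5NC and 3NC, with 3 libraries in each, and their expression was compared across 16395 tested genes of 20788 in the table. The libraries were chosen by their labels alone, as the samples titled F1_5NC and F1_3NC, and no expression value was used to choose them. The other 6 libraries come from testes in which lncRNA8276, a long non-coding RNA known only by that label, was overexpressed (8276OV) or knocked down (8276KD) by virus, 3 in each group. All 12 were made from total RNA of testes of F1 mice of the strain given as "IRC mouse". The groups 5NC and 3NC are treated as the controls because their labels name no change to the RNA; what the abbreviations stand for, which virus these testes received, the age of the mice and the interval after treatment are not stated in the labels. How much lncRNA8276 each library held is not analysed here. No label ties a library to its own animal or to a pool; every p-value therefore measures only how far these samples spread, and that spread may be technical.

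A control virus shows what the injection and the vector do to a tissue without the effect of the cargo, and a set of control groups that differ from each other sets a limit on how far a difference from either can be read. The testis transcriptome is dominated by germ cells: spermatogonia divide, spermatocytes go through meiosis, and round and then elongating spermatids build the acrosome, the tail and the condensed nucleus. Sertoli, Leydig, peritubular, blood and immune cells add smaller shares.

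Several of the largest differences fell on genes that have a close copy in the genome, and the sequences show how alike these copies are. Hbb-bs and Hbb-bt encode adult beta-globin chains of haemoglobin and lie side by side on chromosome 7. Their coding sequences, from GENCODE M21 transcripts, differed at 1 of 441 bases, base 417 counted from the start codon, and the longest identical run was 416 bases. Reads from the coding part therefore rarely separate these genes. The stretch from base 387 to base 441, the end of the coding part, is shown for both, on the minus strand of GRCm38 at chr7:103826668-103826722 for Hbb-bs and chr7:103812659-103812713 for Hbb-bt, with the base that differs in capitals.
Hbb-bs: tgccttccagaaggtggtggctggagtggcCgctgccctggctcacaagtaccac
Hbb-bt: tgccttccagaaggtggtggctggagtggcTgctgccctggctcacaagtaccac

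The promoters of this pair were less alike, at 72.7% identity over the aligned RefSeq windows of 300 bases (GRCm38.p6). The 120 bases before the RefSeq start are shown because both genes were nearly absent from 5NC, at chr7:103827929-103828048 for Hbb-bs and chr7:103813924-103814043 for Hbb-bt, minus strand. Capitals mark matches on the printed strand to 3 motifs searched, which are CACCC, the box CCAAT and the TATA-like ATATAA, all long known from adult beta-globin promoters.
Hbb-bs: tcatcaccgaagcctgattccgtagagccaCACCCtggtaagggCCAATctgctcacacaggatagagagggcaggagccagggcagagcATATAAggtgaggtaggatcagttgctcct
Hbb-bt: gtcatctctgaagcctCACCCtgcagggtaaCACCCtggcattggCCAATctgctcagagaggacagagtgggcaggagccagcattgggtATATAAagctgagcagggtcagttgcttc
Each window held every one of the 3 motifs on the printed strand, with no overlap between them, and CACCC stood 2 times in the Hbb-bt window. On the opposite strand CCAAT matched 2 times in the Hbb-bt window and the other searches found nothing. Among 32851 RefSeq promoter windows cut to the same 120 bases, 31.7% held CACCC, 21.3% held CCAAT and 4.47% held ATATAA on either strand.

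The neighbouring genes A530064D06Rik and 9830107B12Rik on chromosome 17 form a second pair of copies, both nearly absent from 5NC. Their RefSeq promoter windows of 300 bases were 78.8% identical when aligned. The 120 bases before the RefSeq start are shown, at chr17:48167258-48167377 and chr17:48146308-48146427 on the minus strand of GRCm38.p6, with the longest run found in both, 43 bases, in capitals.
A530064D06Rik: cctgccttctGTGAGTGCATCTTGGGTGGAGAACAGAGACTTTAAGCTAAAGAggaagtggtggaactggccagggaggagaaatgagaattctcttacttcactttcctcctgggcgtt
9830107B12Rik: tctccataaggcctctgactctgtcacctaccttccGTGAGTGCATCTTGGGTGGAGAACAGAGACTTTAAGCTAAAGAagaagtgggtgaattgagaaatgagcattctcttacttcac

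Library totals ran from 13485479 to 15771655 counts, and 5NC 2, 5NC 3 and 8276OV 2 formed the lower end. The tissue label was borne out by the germ cell transcripts: the protamine gene Prm2 was at 4751, 4270.0 and 4513 CPM in 5NC and 5630.0, 3977 and 5369 CPM in 3NC, and Insl3, the Leydig cell hormone gene, at 611, 528 and 572 CPM in 5NC and 744, 522 and 395 CPM in 3NC. Levels are given throughout as CPM, counts scaled to a common library total with TMM factors. The library 3NC 2 stood apart from the other 11: its median correlation with them was 0.948, against 0.974 to 0.984 for the rest, and it lay at 85.6 on the first principal component, where no other library passed 15.6. It held far more immune transcripts than the other control libraries. Ptprc, the pan-leukocyte antigen CD45, was at 2.14, 3.32 and 2.66 CPM in 5NC and 3.78, 95.5 and 2.91 CPM in 3NC, and the interferon-induced gene Rsad2 at 0.189, 0.847 and 0.216 CPM in 5NC and 0.332, 37.1 and 0.271 CPM in 3NC. The other defining markers were closer: Amh of Sertoli cells was at 1.95, 1.27 and 1.15 CPM in 5NC and 1.39, 0.751 and 1.01 CPM in 3NC, Acta2 of smooth muscle at 51.6, 34.7 and 40.2 CPM in 5NC and 45.2, 38.8 and 28.6 CPM in 3NC, and Adipoq of fat cells at 9.74, 10.02 and 11.2 CPM in 5NC and 15.3, 11.5 and 15.2 CPM in 3NC. Liver albumin (Alb) was near 0, at 0.0628, 0.0706 and 0.144 CPM in 5NC and 0.0663, 0.125 and 0 CPM in 3NC. Crisp1, an epididymal gene, varied widely within groups, at 9.93, 240.0 and 98.9 CPM in 5NC and 32.6, 62 and 26.3 CPM in 3NC. In bulk tissue such as this, fewer cells of a type and less RNA per cell cannot be told apart.

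The control groups differed in 40 of 16395 genes by edgeR's quasi-likelihood test at an adjusted p below 0.05 (0.244% of those tested), with 15 genes higher in 5NC (0.0915%) and 25 lower (0.152%). The largest differences were in genes lower in 5NC: the adult beta-globin genes Hbb-bs and Hbb-bt, the pepsinogen gene Pga5, and the little-studied genes Gm40011 and A530064D06Rik had almost no counts in 5NC and were present in 3NC. The higher genes had smaller differences, with the amino acid transporter gene Slc6a15, Arhgap40, the calpain subunit gene Capns2 and the beta-globin gene Hbb-b1 in front. Over all tested genes the median log2 fold change (5NC minus 3NC, the sign used throughout) was -0.0178. At an unadjusted p below 0.05 there were 2111 genes (12.9%), 821 higher (5.01%) and 1290 lower (7.87%). The ranges of the 3 libraries did not overlap for any of the 40 genes, against 13.2% of all tested genes. Of the 40, 22 differed by more than 2-fold, and 10 had shared counts, meaning that a count was not a whole number in at least 1 library, so that reads were divided among genes, against 17.3% of tested genes. The number of genes rested on single libraries: it was 22, 126 and 59 without 3NC 1, 2 and 3, and 10, 8 and 7 without 5NC 1, 2 and 3. DESeq2 gave 311 genes and limma-voom 13. With library totals in place of TMM factors 68 genes passed, 34 higher and 34 lower, an even split against 15 and 25.

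**Figure D1:**
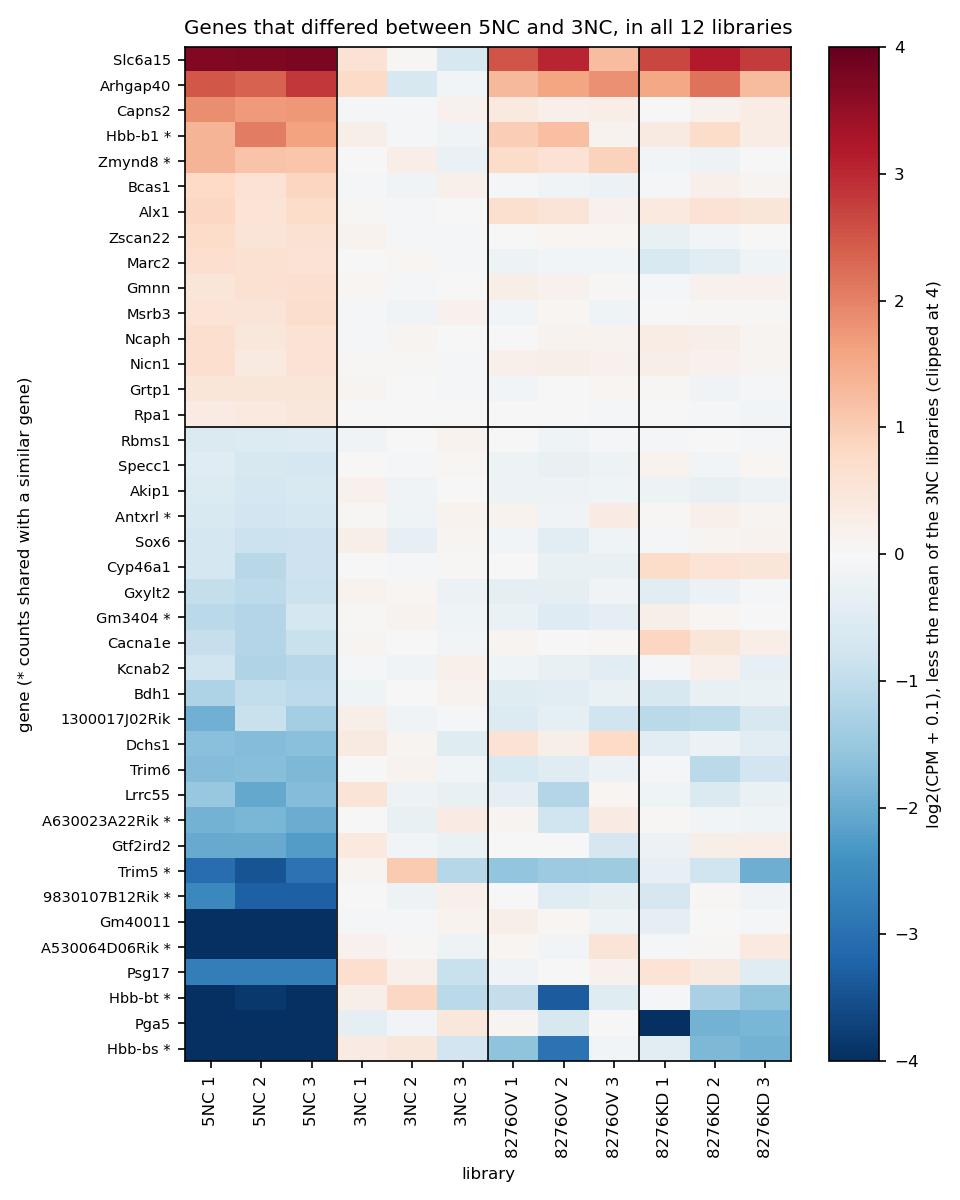
Heat map of the 40 genes that differed between 5NC and 3NC (rows, ordered by log2 fold change) in all 12 libraries (columns); colour is log2(CPM + 0.1) less the mean of the 3NC libraries, clipped at 4, and an asterisk marks shared counts. The 5NC columns stand apart from the other 9 in most rows, with 15 genes above the line and 25 below it.

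For most of these genes 5NC, not 3NC, was the control group that lay apart from the modified libraries. For 36 of the 40 the 5NC mean lay farther than the 3NC mean from the mean of the 6 modified libraries (12 of the 15 higher genes, 24 of the 25 lower), on the scale of log2(CPM + 0.1); the exceptions were Slc6a15, Arhgap40, Alx1 and 1300017J02Rik. In 37 of the 40, all 3 values of 5NC fell outside the range of all 6 modified libraries, and in 8 all 3 values of 3NC did. No test was made of this, since the genes were chosen for a difference between the control groups. These counts were made for the 40 genes only, so there is no share over all tested genes to set beside them. They were also not repeated without the 3NC library that stood apart from the other libraries, whose values enter every 3NC mean and range.

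Gm40011 had the smallest p of all genes. It was at 0.0628, 0.282 and 0.216 CPM in 5NC 1, 2 and 3 and 9.75, 9.58 and 11.2 CPM in 3NC 1, 2 and 3. Every 5NC library was thus far below every 3NC library, and the modified libraries were at the level of 3NC, with 8.75 to 11.8 CPM in 8276OV and 7.79 to 9.98 CPM in 8276KD. Summed counts were 8 over 5NC and 465 over 3NC, a ratio of 55.8 (95% counting interval 28.1 to 130), and edgeR's test gave a log2 fold change of -5.74 ± 0.30 with an adjusted p of 2.99e-06. The gene lies at chr2:173082780-173138200 by RefSeq on GRCm38.p6 and is annotated as protein-coding. Spo11, the enzyme that makes the DNA breaks of meiosis, lies nearby and had 57.2, 62.5 and 66.4 CPM in 5NC and 43.3, 44.9 and 46.5 CPM in 3NC, with 29.96 to 34.7 CPM in 8276OV and 31.5 to 38.6 CPM in 8276KD. Its difference did not pass (log2 fold change 0.47 ± 0.10, adjusted p = 0.0987).

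A530064D06Rik was at 0.126, 0.0706 and 0 CPM in 5NC and 5.9, 5.32 and 4.46 CPM in 3NC, with 4.77 to 7.43 CPM in 8276OV and 4.98 to 6.8 CPM in 8276KD. Its counts were 3 over 5NC and 239.4 over 3NC, a ratio of 76.5 (25.8 to 373), with an adjusted p of 4.84e-05 by edgeR's test. Its neighbour 9830107B12Rik, with shared counts like A530064D06Rik, was at 0.0628, 0 and 0 CPM in 5NC and 0.862, 0.751 and 1.01 CPM in 3NC and had a ratio of 38.5 (6.5 to 1550) on 1 count over 5NC, with an adjusted p of 0.0118. These genes lie next to each other at chr17:48149126-48167275 and chr17:48125605-48146268, both on the minus strand, and the division of reads between them is uncertain because the counts of both are shared. Pga5, which encodes a precursor of the stomach protease pepsin, was at 0, 0.212 and 0 CPM in 5NC and 8.23, 9.71 and 14.4 CPM in 3NC. Unlike the genes above, it was also low in 8276KD (0.0639, 2.72 and 2.85 CPM) and not in 8276OV (11.3, 6.68 and 10.5 CPM). Its ratio of summed counts was 157 (53.5 to 765) in favour of 3NC, with an adjusted p of 0.043, at chr19:10668956-10678071. Psg17, a pregnancy-specific glycoprotein gene, had 0 counts over 5NC and 30 over 3NC, at least 9.59-fold lower in 5NC against a floor of 3 counts over the group (adjusted p = 0.0454). In the modified groups it had 26 and 32 summed counts. The intervals and the floor cover counting error only. Gm40011 and A530064D06Rik passed in all 6 fits that left out 1 control library (adjusted p 4.07e-06 to 0.000123 and 6.64e-05 to 0.00121), 9830107B12Rik was lost without 5NC 2 or 5NC 3 (up to 0.104), and Pga5 and Psg17 were lost without 3NC 1 or any 5NC library (up to 0.233 and 0.222).

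Across the whole table, 60 genes had at most 3 counts over 5NC and at least 30 over 3NC, and 3 genes the reverse. A single library such as 3NC 2 can supply such a sum, so a stricter count asked for at least 5 counts in each library of the other group: 11 genes were then detected in 3NC only and 2 in 5NC only (Slc6a15 and Gm3409, the latter with shared counts). Between 8276OV and 8276KD the same rule gave 4 genes in each direction. Of the 11, A530064D06Rik, 9830107B12Rik and Hbb-bs also had at least 5 counts in each of the 6 modified libraries. Besides these, Pga5 and Hbb-bt, the 11 included Lhx4, a homeobox gene with 5, 6 and 7 counts in 3NC and 1, 1 and 0 in 5NC, and Treml1, a platelet receptor gene with 5, 8 and 6 against 2, 0 and 1. Lhx4 and Treml1 were below the filter and were not tested; they are named here after their values were seen.

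The beta-globin genes moved in opposite directions. Haemoglobin is a tetramer of alpha and beta chains, and laboratory mice carry alternative forms of the adult beta-globin locus, annotated as Hbb-bs with Hbb-bt in one and as Hbb-b1 with Hbb-b2 in the other. Hbb-bs was at 0, 0 and 0.0719 CPM in 5NC 1, 2 and 3 and 13, 14.2 and 6.02 CPM in 3NC 1, 2 and 3. Its summed counts were 1.03 and 512.4, a ratio of 477 (87.8 to 19400), and the adjusted p was 0.0366 by edgeR's test. Hbb-bt was at 0, 0.0706 and 0 CPM in 5NC and 2.79, 4.32 and 1.08 CPM in 3NC, with a ratio of 120 (21.6 to 4890) and an adjusted p of 0.0492. Both genes were thus absent or at 1 count in every 5NC library and present in every 3NC library. The opposite held for Hbb-b1, which was at 21.7, 35.1 and 25.8 CPM in 5NC and 9.95, 7.95 and 7.71 CPM in 3NC, a log2 fold change of 1.69 ± 0.27 (adjusted p = 0.0366). Hbb-b2 was at 3.96, 8.12 and 5.68 CPM in 5NC and 2.32, 1.5 and 0.609 CPM in 3NC; its log2 fold change of 1.99 ± 0.40 did not pass (adjusted p = 0.0687). In the modified groups Hbb-bs was at 1.25 to 9.55 CPM in 8276OV and 2.72 to 7.73 CPM in 8276KD, Hbb-bt at 0.147 to 1.66 CPM in 8276OV and 0.713 to 2.23 CPM in 8276KD and Hbb-b1 at 9.28 to 19.8 CPM in 8276OV and 10.4 to 14.3 CPM in 8276KD. Hbb-bs, Hbb-bt and Hbb-b1 have shared counts, and Hbb-b1 and Hbb-b2 had no position on the reference chromosomes used here.

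The share of the counts of these 4 genes that was assigned to Hbb-bs or Hbb-bt was 0%, 0.163% and 0.228% in 5NC 1, 2 and 3, on 409, 614 and 439 counts, with exact 95% binomial limits reaching at most 1.26%. In 3NC 1, 2 and 3 it was 56.3% (51.4% to 61.1%), 66.2% (61.6% to 70.6%) and 46.1% (39.5% to 52.8%). The modified libraries were all above the 5NC libraries and, but for 8276OV 3, below the 3NC libraries, at 18%, 5.59% and 48.7% in 8276OV and 43.3%, 18.3% and 20.3% in 8276KD, so the share differed between libraries of 1 group by far more than counting error. The other red cell genes described here did not pass. The alpha-globin gene Hba-a1, with shared counts, was at 36.8, 35.6 and 29.2 CPM in 5NC and 45.2, 26.7 and 14.1 CPM in 3NC (adjusted p = 0.827). Alas2, the first enzyme of haem synthesis in red cells, was at 19, 20.7 and 18.8 CPM in 5NC and 19.4, 20.9 and 18.9 CPM in 3NC, and the red cell regulator Klf1 at 1.01, 8.89 and 4.82 CPM in 5NC and 3.71, 3.88 and 3.38 CPM in 3NC. Bpgm, the enzyme that makes bisphosphoglycerate, had a log2 fold change of -0.045 ± 0.089, which did not pass. Of the 9 tested members of the erythroid and globin list, 1 was higher and 2 were lower in 5NC, and the list's median was -0.0195, beside -0.0178 for all genes. The haplotypes of these mice were not analysed here. All 3 globin calls held without 3NC 2 (adjusted p = 0.0435 for Hbb-bs, 0.0477 for Hbb-bt, 0.0416 for Hbb-b1). Without 5NC 1, 5NC 2, 5NC 3 or 3NC 1 none of the 3 passed, with adjusted p reaching 0.222, 0.251 and 0.173, and Hbb-b1 did not pass without 3NC 3 either.

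**Figure D2:**
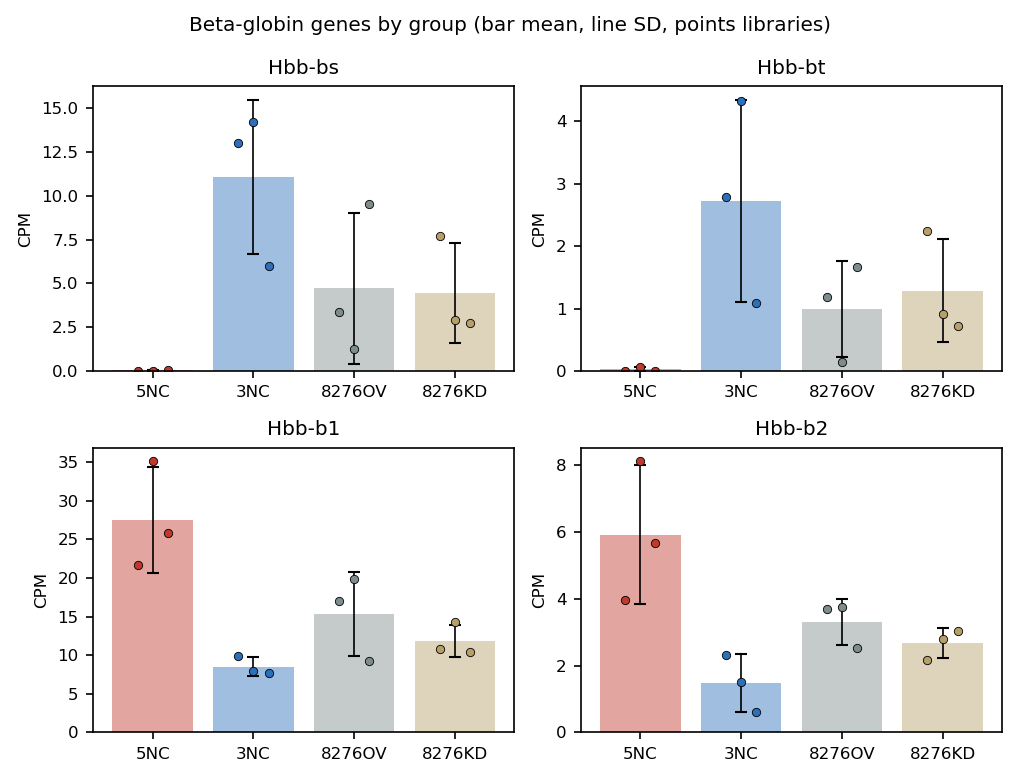
Levels of the 4 adult beta-globin genes in CPM (vertical axes, one panel per gene) in 5NC, 3NC, 8276OV and 8276KD; bars are means, lines SD and points the 3 libraries of a group. Hbb-bs and Hbb-bt are at or near 0 in all 5NC libraries, where Hbb-b1 and Hbb-b2 are highest.

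Genes next to the beta-globin locus also differed. Trim6 and Trim5, which encode ubiquitin ligases of the tripartite motif family, some of whose members act against viruses, start 0.392 and 0.437 Mb from Hbb-bs. Trim6 (chr7:104218793-104235152) was at 3.08, 3.11 and 2.95 CPM in 5NC and 10.3, 11.4 and 9.6 CPM in 3NC, a log2 fold change of -1.78 ± 0.24 (adjusted p = 0.0118 by edgeR's test), with 6.77 to 8.82 CPM in 8276OV and 4.86 to 9.96 CPM in 8276KD. Trim5 (chr7:104263386-104288094), with shared counts, was at 0.126, 0.0706 and 0.144 CPM in 5NC and 1.92, 3.76 and 0.744 CPM in 3NC, and its counts of 5 and 100.8 gave a ratio of 19.3 (8.03 to 61) and an adjusted p of 0.0404, with 0.526 to 0.597 CPM in 8276OV and 0.389 to 1.41 CPM in 8276KD. The 5NC libraries were below all 3NC libraries for both genes. Dchs1, a large cadherin that helps to set planar cell polarity, starts 1.93 Mb from Hbb-bs (chr7:105752990-105787654). It was at 5.41, 5.22 and 5.39 CPM in 5NC and 22.4, 19 and 12.6 CPM in 3NC, a log2 fold change of -1.75 ± 0.21 (adjusted p = 0.00537). Among the modified groups Dchs1 was higher in 8276OV (26, 20.6 and 30.5 CPM) than in 8276KD (12.6, 14.7 and 12.8 CPM), the opposite order to the controls. Dchs1 passed in each of the 6 fits that left out 1 control library (adjusted p 0.000563 to 0.0473). Trim6 was lost without 5NC 1, 5NC 2 or 5NC 3 (up to 0.104), and Trim5 without any of these or 3NC 1 (up to 0.222).

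Within 3 Mb of Hbb-bs there were 68 tested genes, of which 5 passed. At an unadjusted p below 0.05 there were 20 (29.4%, against 12.9% of all tested genes), 14 lower in 5NC and 6 higher. The window was centred on a gene that had passed, and the 20 include the 5 that passed. Their share is thus raised in part by the choice of region. The windows planned for neighbours were 1 Mb on each side, and the 3 Mb window was not among them. The neighbourhood was not uniformly lower. Nup98, a nuclear pore gene, had a log2 fold change of -0.41 ± 0.079 (adjusted p = 0.0557), while Stim1, the calcium sensor of the endoplasmic reticulum, and Pgap2, which remodels lipid anchors, had 0.48 ± 0.097 and 0.41 ± 0.092 (0.0755 and 0.115). Part of the pattern moved with 3NC 2: without that library the interferon-inducible genes Trim30a, Gvin1 and Gm1966 went from -2.55, -3.59 and -2.94 to 0.26, -0.53 and -0.16. Hbb-bs, Hbb-bt, Trim6, Trim5 and Dchs1 still passed without it, with Nup98 (-0.45, adjusted p = 0.0411) and the ubiquilin-like gene Ubqlnl (-0.38, 0.0416) besides, 7 in all.

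**Figure D3:**
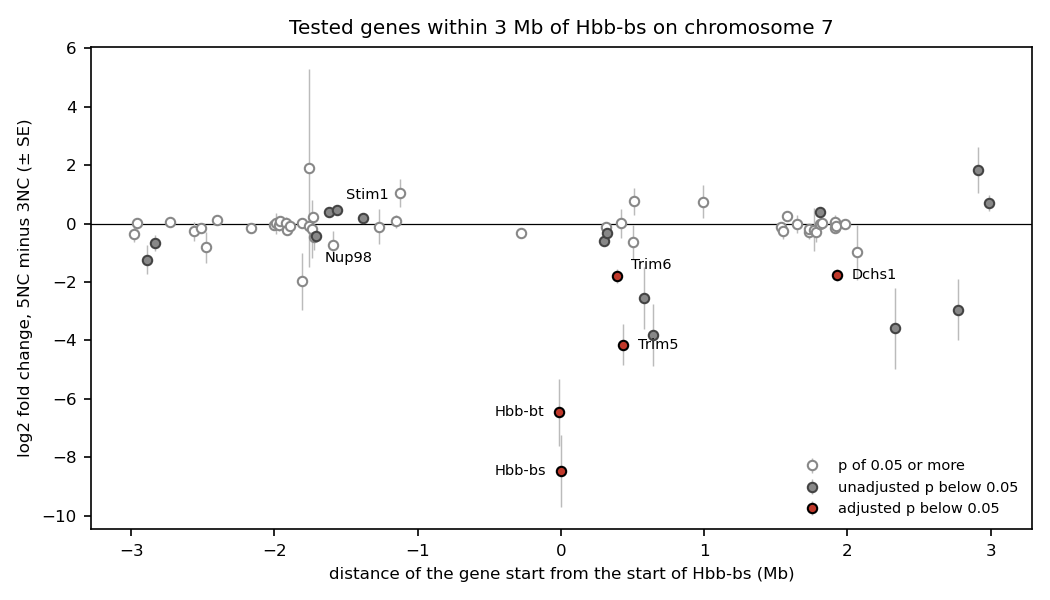
Log2 fold change (5NC minus 3NC, ± SE, vertical axis) of the 68 tested genes within 3 Mb of Hbb-bs on chromosome 7 against the distance of each gene's start from that of Hbb-bs in Mb; red points passed the adjusted threshold, grey points had an unadjusted p below 0.05. The 5 red points are all below 0, and the genes around them are on both sides of it.

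Chromosome 7 held 9 of the 40 genes, 0.717% of its tested genes, and chromosome 2 held 7 (0.549%: Rbms1, Lrrc55, Ncaph, Arhgap40, Zmynd8, Bcas1 and Gm40011), against 0.244% overall; chromosomes 3, 15, 18, X and Y held none. On chromosome 7 these were Zscan22, Psg17, Akip1 and Sox6 beside the 5 near the globins. On other chromosomes, 3 pairs of neighbours passed together: the pair of copies on chromosome 17 and the following. Alx1 and Slc6a15, both higher in 5NC, start 0.369 Mb apart on chromosome 10. Antxrl and A630023A22Rik, both lower, overlap on opposite strands of chromosome 14; since the strand setting is not stated, their reads cannot be told apart. Among 690 tested genes that start within 1 Mb of a gene that passed, 120 (17.4%) had an unadjusted p below 0.05, against 1926 of 15527 other genes with a position (12.4%). Of the 120, 15 lay near Pga5, 14 of them lower in 5NC and several of them Ms4a genes. The 120 also include Trim30a, Gvin1 and Gm1966, whose differences shrank without 3NC 2. These shares were not computed without that library.

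Slc6a15, a sodium-dependent transporter of neutral amino acids, led the genes that were higher in 5NC. It was at 1.95, 1.98 and 2.01 CPM in 5NC 1, 2 and 3 and 0.133, 0.0626 and 0 CPM in 3NC 1, 2 and 3, or 31, 28 and 28 counts against 2, 1 and 0. The ratio of summed counts was 30.2 (10 to 149), with an adjusted p of 0.0118 by edgeR's test. The modified libraries lay between the control groups, with 0.265 to 1.18 CPM in 8276OV and 0.894 to 1.3 CPM in 8276KD. Arhgap40 was at 1.32, 1.2 and 1.73 CPM in 5NC and 0.332, 0.0626 and 0.135 CPM in 3NC, a log2 fold change of 2.96 ± 0.49 (adjusted p = 0.04), again with the modified groups between (0.526 to 0.796 CPM in 8276OV and 0.518 to 1.04 CPM in 8276KD). Capns2, an intronless gene for a small regulatory subunit of calpain proteases, was at 4.4, 3.95 and 4.03 CPM in 5NC and 1.06, 1.06 and 1.28 CPM in 3NC, a log2 fold change of 1.85 ± 0.21 (adjusted p = 0.00414). Here the modified groups sat with 3NC, at 1.32 to 1.51 CPM in 8276OV and 1.15 to 1.43 CPM in 8276KD, and the call held in all 6 fits without 1 control library (adjusted p 0.00667 to 0.0362). Of 15 tested genes of the calpain family only Capns2 passed, and the median of the family was 0.104. Slc6a15 was lost without 5NC 2 or 5NC 3 (up to 0.0674), and Arhgap40 without 3NC 3 or any 5NC library (up to 0.222).

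Zmynd8, Alx1 and Zscan22 were also higher in 5NC. Zmynd8, a reader of chromatin marks with shared counts, was at 26.4, 22.5 and 21.9 CPM in 5NC and 10.3, 12.2 and 8.39 CPM in 3NC, a log2 fold change of 1.197 ± 0.15 (adjusted p = 0.00851). It was also higher in 8276OV (16.9, 15.1 and 19.2 CPM) than in 8276KD (9.45, 8.82 and 10.04 CPM), a difference that did not pass (adjusted p = 0.365). Alx1, a homeodomain factor of head and face development, was at 56.2, 45.7 and 52.4 CPM in 5NC and 32.8, 30.2 and 31.3 CPM in 3NC, and Zscan22, a zinc finger gene, at 35.2, 30.2 and 31.9 CPM in 5NC and 23.2, 20.1 and 19.8 CPM in 3NC. Their log2 fold changes were 0.71 ± 0.12 and 0.62 ± 0.11, with adjusted p of 0.0404 and 0.0431. The modified groups held 35.4 to 49.1 CPM in 8276OV and 41.5 to 46.9 CPM in 8276KD for Alx1, overlapping 5NC, and 20.6 to 22.2 CPM in 8276OV and 17 to 20.9 CPM in 8276KD for Zscan22, at the level of 3NC. Zmynd8 passed in all 6 fits without 1 control library (adjusted p 0.00302 to 0.0428), Alx1 only in the fit without 3NC 2 (0.0486), and Zscan22 in none (0.0509 without 3NC 2, up to 0.222).

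Gmnn, Rpa1 and Ncaph were also higher in 5NC. Gmnn encodes geminin, which blocks a second round of DNA replication, and was at 32.8, 35.4 and 36.1 CPM in 5NC and 24.3, 22.7 and 22.7 CPM in 3NC. Rpa1 encodes the large subunit of the protein that coats single-stranded DNA and was at 259.7, 274 and 283 CPM in 5NC and 212, 204 and 208 CPM in 3NC. Ncaph, a subunit of condensin, was at 31.6, 27.4 and 29.6 CPM in 5NC and 18.6, 21.2 and 19.7 CPM in 3NC. In each of the 3 genes all 5NC libraries were above all 3NC libraries, and the log2 fold changes were 0.58 ± 0.10, 0.39 ± 0.067 and 0.57 ± 0.10 (adjusted p = 0.0404, 0.0404 and 0.0454 by edgeR's test). The mean of the modified libraries was closer to 3NC than to 5NC in each, at 24.1 to 27.5 CPM in 8276OV and 21.9 to 26.3 CPM in 8276KD for Gmnn, 198 to 208 CPM in 8276OV and 195 to 208 CPM in 8276KD for Rpa1 and 19.4 to 22 CPM in 8276OV and 21.4 to 24.6 CPM in 8276KD for Ncaph.

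The other higher genes were enzymes and genes of diverse roles. Msrb3, a methionine sulfoxide reductase, was at 92.4, 90.6 and 102 CPM in 5NC and 61.8, 57.7 and 71.2 CPM in 3NC. Marc2, a mitochondrial reductase, was at 53.9, 51.8 and 50.9 CPM in 5NC and 33.8, 36 and 32.3 CPM in 3NC, and every modified library was below every control library (29.4 to 31.8 CPM in 8276OV and 22.3 to 29.99 CPM in 8276KD). Bcas1 was at 40.4, 35.3 and 42.4 CPM in 5NC and 22.3, 21.4 and 26.8 CPM in 3NC, against 19.96 to 22.9 CPM in 8276OV and 22.4 to 26.8 CPM in 8276KD. Nicn1, a subunit of the enzyme complex that adds glutamate chains to tubulin, was at 44.8, 35.9 and 42.1 CPM in 5NC and 28.7, 28.9 and 26.4 CPM in 3NC, against 31.8 to 32.8 CPM in 8276OV and 30.5 to 33 CPM in 8276KD. Grtp1, a TBC-domain gene, was at 74.8, 75 and 75.4 CPM in 5NC and 57.6, 52.9 and 50.5 CPM in 3NC, against 49.3 to 56.1 CPM in 8276OV and 48.3 to 55.4 CPM in 8276KD. Msrb3 in the modified groups was at 55.8 to 67 CPM in 8276OV and 64 to 65.7 CPM in 8276KD. The log2 fold changes of these 5 genes ran from 0.49 ± 0.086 for Grtp1 to 0.75 ± 0.12 for Bcas1, with adjusted p of 0.0366 to 0.0435. Of the 8 genes from Bcas1 and Marc2 to Gmnn, Rpa1 and Ncaph, each passed without 3NC 2 (adjusted p 0.0411 to 0.0486) and none passed without 3NC 1 or any 5NC library, where adjusted p reached 0.222 to 0.233; Bcas1 and Msrb3 also passed without 3NC 3.

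Gtf2ird2, a member of the TFII-I family of transcription factors encoded beside the region deleted in Williams syndrome in humans, was lower in 5NC. It was at 4.34, 4.38 and 3.74 CPM in 5NC 1, 2 and 3 and 23.4, 16.7 and 14.9 CPM in 3NC 1, 2 and 3, with 11.3 to 18.4 CPM in 8276OV and 15.2 to 21.8 CPM in 8276KD. Every 5NC library was below every other library. The log2 fold change was -2.14 ± 0.23 (adjusted p = 0.00414 by edgeR's test) and held in all 6 fits without 1 control library (adjusted p 0.0035 to 0.0362). The gene lies at chr5:134184019-134224355 and its counts are not shared. Of the 19 tested genes of the family and its neighbours, only Gtf2ird2 passed. The list's median was 0.0425, and Castor2, an arginine sensor gene nearby, had a log2 fold change of -0.68 ± 0.17 (adjusted p = 0.152).

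Lrrc55, Kcnab2 and Cacna1e were also lower in 5NC. Lrrc55, an auxiliary subunit of BK potassium channels, was at 2.95, 2.05 and 2.52 CPM in 5NC and 12.3, 7.45 and 7.1 CPM in 3NC. Kcnab2, a beta subunit of voltage-gated potassium channels, was at 17.8, 13.5 and 14.2 CPM in 5NC and 29.2, 28.2 and 35.7 CPM in 3NC, and Cacna1e, the pore subunit of R-type calcium channels, at 3.46, 2.89 and 3.52 CPM in 5NC and 7.1, 6.64 and 6.09 CPM in 3NC. The groups did not overlap in any of them, with log2 fold changes of -1.83 ± 0.32, -1.03 ± 0.16 and -1.003 ± 0.17 (adjusted p = 0.0404, 0.0328 and 0.0404). The mean of the modified libraries was again closer to 3NC than to 5NC: 3.82 to 9.22 CPM in 8276OV and 5.77 to 7.73 CPM in 8276KD for Lrrc55, 22.8 to 27.5 CPM in 8276OV and 24.4 to 35.3 CPM in 8276KD for Kcnab2 and 6.68 to 7.1 CPM in 8276OV and 8.03 to 11.9 CPM in 8276KD for Cacna1e. Kcnab2 was lost without 5NC 2 or 5NC 3 and the other 2 without 3NC 1 or any 5NC library (adjusted p up to 0.222 for each).

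Bdh1, the mitochondrial enzyme that interconverts the ketone bodies acetoacetate and beta-hydroxybutyrate, was at 8.23, 9.88 and 9.35 CPM in 5NC and 17.4, 19.9 and 21.7 CPM in 3NC, with 14 to 16.1 CPM in 8276OV and 12.4 to 16.3 CPM in 8276KD. Its log2 fold change was -1.10 ± 0.14 (adjusted p = 0.00881 by edgeR's test). The gene 1300017J02Rik was at 5.84, 12.2 and 8.7 CPM in 5NC and 26.7, 20.2 and 21.2 CPM in 3NC (-1.35 ± 0.23, adjusted p = 0.0404). It is the lower gene whose 3NC mean, not its 5NC mean, lay farther from the modified libraries, at 13 to 17.2 CPM in 8276OV and 10.6 to 14.51 CPM in 8276KD. A630023A22Rik, with shared counts, was at 1.07, 1.13 and 1.01 CPM in 5NC and 4.25, 3.44 and 5.34 CPM in 3NC, with 2.42 to 5.37 CPM in 8276OV and 3.82 to 4.47 CPM in 8276KD (-2.01 ± 0.29, adjusted p = 0.0239). Bdh1 was lost without 5NC 1 or 5NC 3 (adjusted p up to 0.0674), A630023A22Rik without any 5NC library (up to 0.199), and 1300017J02Rik without 3NC 1, 3NC 3, 5NC 1 or 5NC 3 (up to 0.222).

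The remaining genes that were lower in 5NC had smaller changes, from -0.98 ± 0.15 for Gm3404, a gene with shared counts, to -0.55 ± 0.086 for the RNA-binding protein gene Rbms1. Between them lay Gxylt2, a xylosyltransferase that acts on Notch receptors, Cyp46a1, the cholesterol 24-hydroxylase, Sox6, a transcription factor of the Sox family, Antxrl, with shared counts, Akip1, a partner of protein kinase A, and Specc1. Their adjusted p ran from 0.0296 to 0.0404. Sox6 was at 61.8, 55.5 and 56 CPM in 5NC and 118, 79.1 and 109 CPM in 3NC and Cyp46a1 at 6.41, 4.8 and 5.9 CPM in 5NC and 10.6, 9.96 and 10.8 CPM in 3NC, so that all 5NC libraries were below all 3NC libraries. Gm3404 has neighbours with shared counts that did not pass and did not all go the same way: Gm3415 had a log2 fold change of -1.07 ± 0.20 (adjusted p = 0.0508), while Gm3402 had 8.72, 105 and 32 counts in 5NC against 2.24, 1.42 and 0 in 3NC, and Gm3409 had 11.7, 65 and 21.6 against 2.32, 0 and 0. Each of the 8 genes from Gm3404 to Rbms1 passed without 3NC 2. Without 5NC 1 or 5NC 2 none passed, with adjusted p up to 0.222. Only Gm3404 passed without 5NC 3, and only Rbms1 without 3NC 1. Specc1, Antxrl, Sox6 and Cyp46a1 were lost without 3NC 3 too, and so passed only without 3NC 2.

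Beside the genes that passed, the germ cell lists showed shifts too small to pass gene by gene. Of 28 tested round spermatid genes, 24 were below 0 and the median log2 fold change was -0.187, beside -0.0178 for all genes. Over all 16395 tested genes, 8754 were below 0 and 7641 above. Of 31 tested genes of elongating spermatids and the sperm tail, 26 were below 0 and the median was -0.172. Of 23 tested genes of pachytene and diplotene spermatocytes, 19 were above 0 and the median was 0.138. None of these genes passed. At an unadjusted p below 0.05 there were 8 lower and 0 higher round spermatid genes, 7 lower and 0 higher elongating spermatid genes, and 0 lower and 7 higher pachytene genes, against 7.87% lower and 5.01% higher over all genes. Spermatogonial genes (median 0.127) and genes of meiotic prophase (0.00283) had 0 and 4 members at that level.

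Among spermatid genes, Acrv1, an acrosomal protein gene, was at 139.9, 135 and 137 CPM in 5NC and 178, 144 and 227 CPM in 3NC, with 174 to 210.0 CPM in 8276OV and 193 to 200.8 CPM in 8276KD. Spaca3, a lysozyme-like protein of the sperm head, was at 68.9, 69 and 68.4 CPM in 5NC and 90.8, 74.6 and 117 CPM in 3NC, and Izumo1, the sperm protein that binds the egg, at 57.1, 56.8 and 63.2 CPM in 5NC and 73.1, 66 and 98.3 CPM in 3NC. In each, the 3 values of 5NC lay close together and below the others, while 3NC 3 was highest and 3NC 2 lowest within 3NC. Log2 fold changes were -0.41 ± 0.13, -0.45 ± 0.14 and -0.42 ± 0.13, with adjusted p of 0.258, 0.247 and 0.236 by edgeR's test. In the tail list, Spata18 was at 488, 421 and 455 CPM in 5NC and 611, 506 and 631 CPM in 3NC and Smcp, the mitochondrial capsule protein, at 1518, 1437 and 1450.0 CPM in 5NC and 1725, 1532 and 2221 CPM in 3NC (adjusted p = 0.202 and 0.306). Acrv1, Spaca3, Izumo1, Spata18 and Smcp were chosen after their values were seen. The most abundant members did not pass either: Tssk2, a spermatid kinase, had -0.16 ± 0.15, Zpbp2, a zona-binding protein, had 0.27 ± 0.12, Prm2 -0.15 ± 0.13 and Odf2, an outer dense fibre protein, -0.10 ± 0.095.

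Of the 7 pachytene genes with an unadjusted p below 0.05, 4 are given here, chosen after their values were seen. None of the 7 passed. Ccna1, the germ cell cyclin A, was at 154, 146 and 149 CPM in 5NC and 121, 109.8 and 121 CPM in 3NC, and Cdk1, the mitotic and meiotic kinase, at 49.2, 48.4 and 48.6 CPM in 5NC and 36.7, 38.3 and 36.6 CPM in 3NC. Aurka and Aurkb, the Aurora kinases of spindle and chromosome segregation, were at 179, 162 and 174 CPM in 5NC and 152, 131 and 140.2 CPM in 3NC and at 19.6, 17.1 and 19 CPM in 5NC and 13.3, 13.7 and 13.1 CPM in 3NC. The control groups did not overlap in any of the 4. Their log2 fold changes were 0.35 ± 0.077, 0.39 ± 0.08, 0.28 ± 0.079 and 0.48 ± 0.12, with adjusted p of 0.1, 0.0755, 0.194 and 0.171. The abundant members Ldhc, the sperm lactate dehydrogenase, and Adam3 had 0.071 ± 0.092 and 0.032 ± 0.09. Summed over the pachytene list, 5NC 1, 2 and 3 held 8461, 8400 and 8694 CPM. In 3NC 1, 2 and 3 the sums were 8378, 7353 and 9036 CPM, so the control groups overlapped and 3NC 3 was highest.

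**Figure D4:**
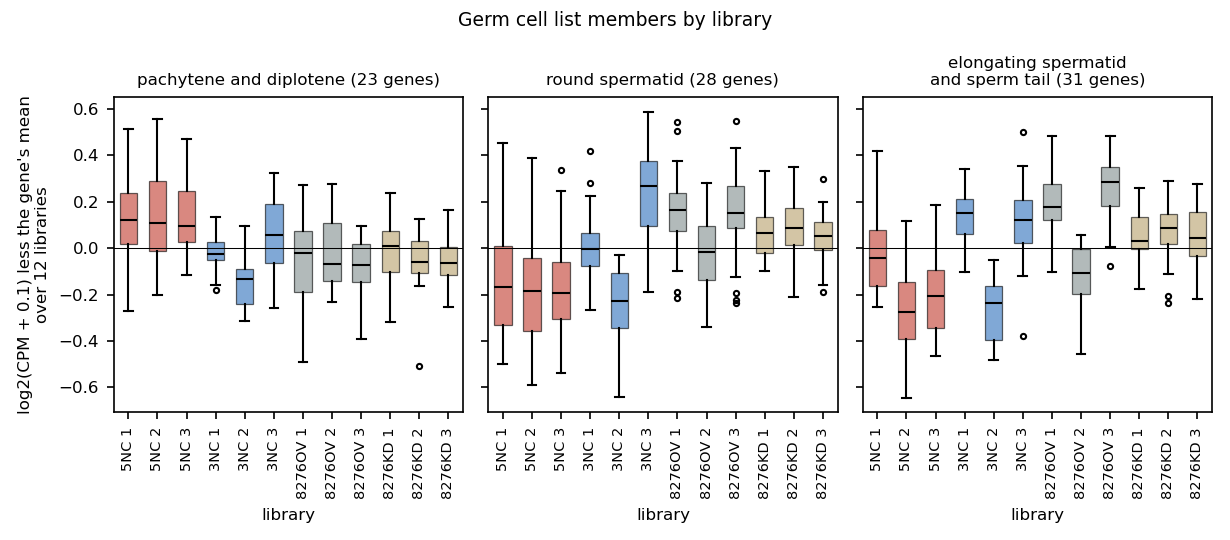
Box plots, one per library, of log2(CPM + 0.1) of the tested genes of 3 germ cell lists, each gene less its mean over 12 libraries; the line in a box is the median, the box the quartiles, and circles lie beyond the whiskers. The medians of the 5NC boxes are below 0 for both spermatid lists and above 0 for pachytene genes, and that of 3NC 2 is below 0 in all 3 lists.

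Library totals moved with part of this. 5NC 2 and 5NC 3 had low totals, and summed over the elongating list they held 26740 and 28340 CPM against 31720 in 5NC 1; 8276OV 2, the other library with a low total, held 28640 CPM against 34790 and 37060 in 8276OV 1 and 3. In 3NC the sums were 35060, 26140 and 32800 CPM, with 3NC 2 lowest. Over the round spermatid list the sums were nearly equal in 5NC 1, 2 and 3, at 4370, 4329 and 4361 CPM. In 3NC 1, 2 and 3 they were 4802, 3952 and 5377 CPM, so 3NC 2 lay below every 5NC library. In 8276OV 1, 2 and 3 they were 5123, 4547 and 5173 CPM, with the low-total library again lowest. The part of the totals in the spermatid shift was not tested. The shifts also depended on single libraries. Without 3NC 2 the round spermatid median was -0.328, with 16 of 28 genes lower at an unadjusted p below 0.05, and the elongating spermatid median was -0.286, with 19 of 31; the pachytene median shrank to 0.0484 with 6 higher and 1 lower. Without 3NC 3 the medians were -0.104, -0.105 and 0.177, with 4, 1 and 0 genes lower for round spermatids, elongating spermatids and pachytene genes. In that fit 9.67% of all tested genes were lower at an unadjusted p below 0.05. The elongating list (1 of 31) was below that share and the round spermatid list (4 of 28) above it. Over the 6 fits that left out 1 control library, the number of lower genes ran from 4 to 16 for round spermatids and from 1 to 19 for elongating spermatids. The share of lower genes over all tested genes ran from 4.95% to 10.1% in these fits. In the fit without 3NC 2, 126 of 16537 genes passed (0.762%), 23 higher and 103 lower in 5NC, including 39 of the 40 above, and at an unadjusted p below 0.05 there were 9.55% lower and 6.07% higher. Acrv1 (-0.56 ± 0.11, adjusted p = 0.0416) and Spata18 (-0.45 ± 0.092, 0.0486) passed there.

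No gene of the Sertoli, Leydig, peritubular or adipose lists passed. Of 28 tested Sertoli genes, 4 were higher and 1 lower at an unadjusted p below 0.05, with a median of 0.104. Over all tested genes 5.01% were higher and 7.87% lower at that level. Cst9, a cystatin of Sertoli cells, was at 8.04, 11.8 and 10.4 CPM in 5NC and 40.9, 39.7 and 66.2 CPM in 3NC, with no overlap and a log2 fold change of -2.28 ± 0.38; it missed the threshold with all libraries (adjusted p = 0.0504) and passed without 3NC 2 (0.0435). Inha, the inhibin alpha subunit, was at 90.3, 67.5 and 68.5 CPM in 5NC and 66.1, 46.6 and 49 CPM in 3NC (adjusted p = 0.244). Cst9 and Inha were chosen after their values were seen. The most abundant Sertoli members, Clu and Aard, had -0.12 ± 0.14 and 0.13 ± 0.11. Leydig genes had a median of 0.00148 and peritubular genes one of -0.00739, but single libraries turned both: the medians were 0.163 and 0.167 without 3NC 2, and -0.151 and -0.142 without 3NC 3. Of 12 adipose genes 11 were below 0, with a median of -0.585, led in abundance by Acsl1 (-0.37 ± 0.096, adjusted p = 0.173; -0.46 ± 0.084 and 0.0416 without 3NC 2) and Lipe (-0.039 ± 0.15). Genes of RNA interference (median 0.0298), piRNA pathway genes (0.0324), oxidative phosphorylation (0.0874) and cytosolic ribosomes (0.0079) had no member that passed.

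The immune lists rested on 3NC 2. Summed over the macrophage and leukocyte list, that library held 1101 CPM and the other 5 control libraries 117.8 to 164.3; over the type I interferon list it held 1226 CPM and the others 211.5 to 435.5. With all libraries 16 of 18 leukocyte genes and 26 of 30 interferon genes were below 0, with medians of -1.93 and -1.23, and none passed. Without 3NC 2 the medians were -0.0234 and 0.575. At an unadjusted p below 0.05, 10 of the 30 interferon genes were then higher in 5NC and none lower. Over all tested genes 6.07% were higher and 9.55% lower in that fit. The interferon sums were 280.7, 435.5 and 329 CPM in 5NC 1, 2 and 3 and 245.4 and 211.5 CPM in 3NC 1 and 3. They ran from 236.2 to 282.1 CPM in 8276OV and from 218.8 to 304.9 CPM in 8276KD, overlapping 5NC. The median of genes of virus entry and nucleic acid sensing went from -0.42 to 0.0581 without 3NC 2. The labels give no batch or health record for this library, and its part in the other results was not tested beyond leaving it out.

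**Figure D5:**
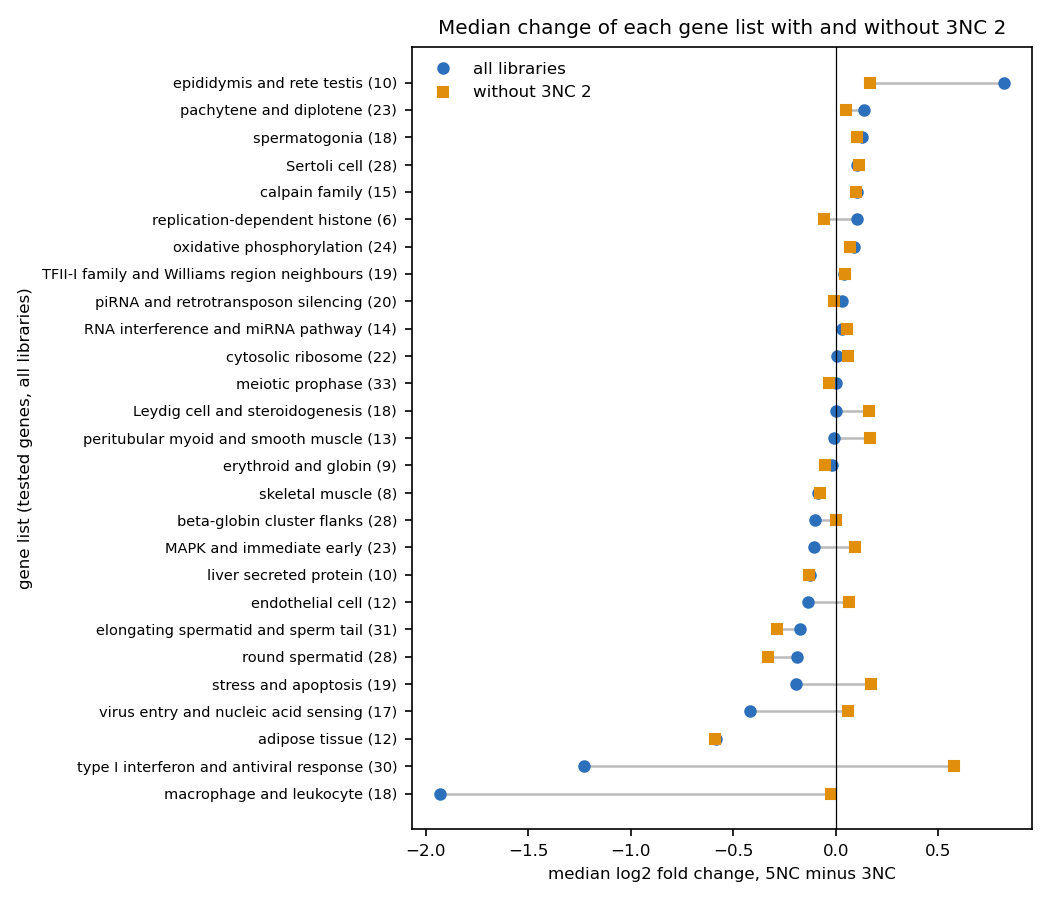
Median log2 fold change (5NC minus 3NC, horizontal axis) of each gene list (vertical axis, with the number of tested genes) with all libraries (circles) and without 3NC 2 (squares). The leukocyte and interferon lists move most, from -1.93 to -0.0234 and from -1.23 to 0.575, and the spermatid lists move away from 0.

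The modified groups, which share no library with the control comparison, were compared in the same fit of all 12 libraries. Their p-values therefore use a spread estimated with 3NC 2 included. These groups carry opposite changes of lncRNA8276, so they do not measure how far unchanged groups of 3 differ. By edgeR's test 0 of 16395 genes differed between 8276OV and 8276KD (0%), with 343 at an unadjusted p below 0.05 (2.09%); limma-voom gave 0 genes and DESeq2 13. Of the 40 control genes, 9 had an unadjusted p below 0.05 between 8276OV and 8276KD, 7 in the same direction as between 5NC and 3NC. In all, 24 of the 40 had the same sign and 16 the opposite one. The test of whether a gene differed otherwise between the modified groups than between the controls passed for 3 genes (0.0183%): Gm40011 (log2 difference 5.93 ± 0.37, adjusted p = 2.24e-05), A530064D06Rik (6.15 ± 0.53, 0.000403) and Dchs1 (2.69 ± 0.28, 0.00262). For Gm40011 and A530064D06Rik 8276OV minus 8276KD was 0.19 ± 0.20 and 0.053 ± 0.26, and neither passed (adjusted p = 1). For Dchs1 they differed by 0.94 ± 0.19 in the other direction, which did not pass on its own (adjusted p = 0.524).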

How the data were processed

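Total RNA of F1 mouse testes was sequenced, and the authors deposited 1 table of estimated counts of reads per gene, named as read counts in its header; 88.2% of its values are whole numbers. Per the submitters' processing notes, mm10 was the genome build. Not given in the sources used here: how reads were aligned and counted, the annotation and the strand setting. The values of 18 columns that belong to other samples were not used.

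Estimated counts were rounded to whole numbers. Genes were kept by filterByExpr (minimum count 10), which left out 4393 genes with 0.0707% of the counts. All 12 libraries, in 4 groups of 3, entered a single edgeR 4.0.16 quasi-likelihood fit (R 4.3.3, limma 3.58.1) with TMM factors and robust dispersion. Contrasts were 5NC minus 3NC, 8276OV minus 8276KD and the difference of these; p-values were adjusted by Benjamini-Hochberg over all tested genes, with a threshold of 0.05. The biological coefficient of variation was 19.7%. Genes are named by this rule: those that passed, and members of gene lists. Values per library are given for up to 15 rises and 15 falls among those with a higher-group mean of at least 1 CPM. The list members named by rule are those that passed, the most abundant ones, the red cell genes and fixed markers of cell types. Genes whose close copies or neighbours matter are named with them; others are said to be chosen after their values were seen. The genes and lists were chosen with earlier results of these data known. The scripts were tested on simulated data. Positions and sequences come from GENCODE M21 and RefSeq on GRCm38.

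Same-numbered 5NC and 3NC libraries had correlations of deviations of 0.299, 0.181 and 0.00317, and differently numbered ones -0.26 to 0.0556. The labels state no pairing, so the main fit used none, and whether the numbers mark a shared batch was not tested. Alternatives were other scaling factors, filters on low counts, whole-number genes only, the compared libraries only, a term for libraries with low totals, the replicate block, limma-voom, DESeq2 1.42.0 and leaving out each library; list medians without each control library were added after the data were seen.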

Additional observations from a re-analysis of the deposited data

Results flagged for a closer look

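Gm40011, A530064D06Rik and Dchs1 differed between the control groups in another way than between the modified groups, by edgeR's test of the difference itself. The difference of 8276OV and 8276KD less that of 5NC and 3NC was 5.93 (log2) for Gm40011, 6.15 for A530064D06Rik, whose counts are shared, and 2.69 for Dchs1. For Dchs1, every 5NC library was below every 3NC library and every 8276OV library was above every 8276KD library. Each of the 3 differences passed in all 12 fits that left out 1 library.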

How the results depend on the processing

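The 40 genes that passed between 5NC and 3NC became 68 with library totals in place of TMM factors, 9 with only the libraries compared, 6 with a term for the libraries with low totals, 13 by limma-voom and 311 by DESeq2. Leaving out 1 library moved this count between 7 and 126, the count of 8276OV against 8276KD (0) between 0 and 2, and that of the difference of differences (3) between 3 and 12. DESeq2 gave 13 genes for 8276OV against 8276KD and 50 for the difference of differences. With the replicate block the counts were 54 for 5NC against 3NC, 0 for 8276OV against 8276KD and 6 for the difference of differences. Whether the numbers pair the samples is not stated in the labels (correlations 0.299, 0.181 and 0.00317 for same numbers, -0.26 to 0.0556 for different ones). Leaving out 1 library leaves fewer residual degrees of freedom, and the count of 5NC against 3NC went both below and above 40. The cause was not tested in any setting. The interferon list's median went from -1.23 to 0.575 without 3NC 2 and lay between -1.74 and 0.575 over the fits without 1 control library. For single genes that passed, 418 values kept direction and call, 246 kept direction but missed the threshold and 0 changed direction. The 40 genes were chosen for a difference in these data and did not overlap between the control groups, so a kept direction shows little. Genes that passed in every setting that gave a value were Gtf2ird2, Gm40011 and A530064D06Rik, 3 in all. Genes with few counts in both groups have wide counting intervals, and differences in them were not detectable at this depth.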

Other observations

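Among the 103 genes lower and the 23 higher in 5NC without 3NC 2, these were chosen after their values were seen and stand for no group. In that fit the log2 fold changes were -0.61 ± 0.089 for Spata31d1c, -0.55 ± 0.11 for Spata31, -0.48 ± 0.087 for the sperm surface protease-family gene Adam21 and -0.40 ± 0.074 for Adam1a, with adjusted p of 0.0228, 0.0416, 0.0411 and 0.0416 by edgeR's test. Creb3l4, a transcription factor gene of the CREB3 family, had -0.60 ± 0.094 and Klf17, of the Krüppel-like family, -0.68 ± 0.11 (adjusted p = 0.0269 and 0.0328). The higher genes included the type IV collagen gene Col4a3 (0.96 ± 0.14, adjusted p = 0.0237) and Lbp, the lipopolysaccharide-binding protein gene (1.35 ± 0.23, 0.0384).

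Of the lists not described above, the medians were -0.195 for 19 stress and apoptosis genes, -0.104 for 23 MAPK and immediate early genes, 0.103 for 6 replication-dependent histone genes, -0.0871 for 8 skeletal muscle genes, -0.134 for 12 endothelial genes and -0.124 for 10 genes of liver secreted proteins, beside -0.0178 for all genes, and none of their members passed. Without 3NC 2 the sign of the median turned in 4 of these lists: stress and apoptosis (0.173), MAPK and immediate early (0.0946), histone (-0.0575) and endothelial genes (0.067). Of 10 tested epididymal genes 9 were above 0 (median 0.82, and 0.168 without 3NC 2), with summed levels of 258.9, 537.3 and 374.6 CPM in 5NC, 302.3, 288.8 and 276.7 CPM in 3NC and 1098 CPM in 8276KD 1.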
